A study of Rattus norvegicus with 6 samples.

Results

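The EGF receptor, its relatives, their ligands and the receptor inhibitor Errfi1 were read from RNA sequencing of cells of the rat nucleus pulposus, the soft centre of the intervertebral disc. The 10 genes were chosen by name, with earlier results of these data known, and kept whatever their level. They are the receptors Egfr, Erbb2 and Erbb3, the ligands Ereg, Hbegf, Tgfa, Nrg1, Areg and Btc, and Errfi1, and all 10 were among the 22573 rows used. One group of 3 libraries came from cells under cyclic tensile strain. These cells were elongated by 18% at 0.2 Hz during 24 h on a Flexcell device. The other group of 3 libraries was classed as control. Both groups are labelled as nucleus pulposus of the Sprague Dawley rat, and no genotype, age or agent is given for either. All 6 samples carry the same treatment text, and only the class label marks the controls as unstretched. Whether replicates are separate animals or cultures is not stated, so p-values reflect the spread among these 6 samples, possibly a technical one.

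Ligands of the ErbB receptors are made as membrane-anchored precursors, and proteases cut them free. A freed ligand joins receptors into pairs, which activate each other's kinase domains and feed the RAS to ERK cascade and the PI3K to AKT arm. Errfi1, also known as MIG6, is induced by receptor activity and other stimuli and blocks the receptor kinase, so it closes a feedback loop. In skeletal tissues this pathway is known for its part in the growth and survival of cartilage cells.

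Levels are the authors' FPKM, fragments scaled to transcript length and library size, which can be compared between genes because they are scaled to length. The libraries summed to 309497 to 348238 FPKM under strain and 332716 to 347117 FPKM in controls, and 10068 to 10142 rows per library reached 1 FPKM. The depth is unknown, so no counting interval is given. Genes averaging 1 FPKM or more across the 6 libraries were tested on log2(FPKM + 1) with limma, and "called" means a Benjamini-Hochberg adjusted p under 0.05 over the 10180 genes tested. Of these genes, 16.4% were called higher and 19.0% lower under strain. Of the cell markers fixed for the nucleus pulposus, Pax1 (10.3 ± 1.08 FPKM under strain and 3.46 ± 0.40 FPKM in controls), Foxf1, Krt8 and Acan were expressed, while Krt18, Krt19 and the notochordal gene T averaged 0.0111 to 0.10 FPKM by group. Col2a1 was low, at 0.898 ± 0.485 FPKM under strain and 0.0423 ± 0.0294 FPKM in controls. Car12 averaged 0.338 FPKM under strain and 0.434 FPKM in controls, and Shh was listed at 0 in every library. Of 18 such markers in the files 12 were tested, of which 8 were called higher and 2, Cdh2 and Slc2a1, lower (limma, median log2 fold change 0.80). The list summed to 11890 to 14170 FPKM under strain and 5188 to 5644 FPKM in controls, mostly from Mgp, and its part in the results on the 10 genes was not tested.

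The region before the transcription start is shown for 3 genes whose levels fell, because it is where factors downstream of a receptor can act. The windows are RefSeq sequences of build GRCr8, from 250 bases before to 50 bases after the annotated start, written 5′ to 3′ on the gene's strand. Capitals mark every match to the motifs searched. The Areg window is chr14:17265592-17265891, minus strand, that of Errfi1 is chr5:166606591-166606890, plus strand, and that of Egfr is chr14:95378376-95378675, plus strand.
Areg: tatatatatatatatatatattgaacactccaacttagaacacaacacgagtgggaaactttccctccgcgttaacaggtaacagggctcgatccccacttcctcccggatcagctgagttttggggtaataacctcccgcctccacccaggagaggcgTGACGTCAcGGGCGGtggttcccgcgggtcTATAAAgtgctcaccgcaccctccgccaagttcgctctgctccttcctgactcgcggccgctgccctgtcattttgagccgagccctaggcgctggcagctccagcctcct
Errfi1: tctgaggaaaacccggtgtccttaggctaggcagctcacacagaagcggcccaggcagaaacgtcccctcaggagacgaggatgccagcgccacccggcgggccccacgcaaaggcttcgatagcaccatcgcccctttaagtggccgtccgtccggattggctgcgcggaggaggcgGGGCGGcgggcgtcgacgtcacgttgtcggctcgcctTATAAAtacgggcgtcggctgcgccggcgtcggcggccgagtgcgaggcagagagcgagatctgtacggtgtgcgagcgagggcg
Egfr: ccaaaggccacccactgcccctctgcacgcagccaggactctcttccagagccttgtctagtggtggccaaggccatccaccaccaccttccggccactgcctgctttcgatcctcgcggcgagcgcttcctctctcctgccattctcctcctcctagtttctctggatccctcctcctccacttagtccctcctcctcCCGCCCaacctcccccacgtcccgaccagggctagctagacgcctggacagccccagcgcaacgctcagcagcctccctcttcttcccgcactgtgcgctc

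The table of windows held 7 of the 10 genes: Egfr, Erbb2, Hbegf, Areg, Tgfa, Btc and Errfi1. Both strands were searched for 8 motifs. The cyclic AMP response element TGACGTCA was in the Areg window, with its first base at -91, and in 1.83% of all 33469 windows. The TATA box TATAAA was in the windows of Areg (first base at -61) and Errfi1 (-35), and in 14.2% of all windows. The Egfr window held no such box and 1 GC box, CCGCCC, which is the other strand of GGGCGG. The GC box was in 6 of the 7 windows, Hbegf being the exception, and in 33.1% of all windows. The AP-1 motif TGANTCA, the E-box CACGTG and the glucocorticoid response element were in 0 of the 7 windows, against 7.33%, 6.42% and 0.439% of all windows. The NF-kB motif was in the Btc window and in 5.37% of all windows, and the TEAD motif GGAATG was in the Erbb2 window and in 14.2% of all windows. The matches overlapped in no window, and a match is a description of the letters, not a bound site.

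Under strain, 7 of the 10 genes were called lower (limma), 0 were called higher, and 3 (Erbb2, Erbb3 and Btc) were under the filter and were not tested. The share of all tested genes called lower was 19.0%. Of the 7 tested, Areg and Nrg1 averaged under 1 FPKM under strain and passed the filter through their control values. In none of the 7 did the groups overlap, and all 3 strain libraries were lower than all 3 controls in 28.0% of all tested genes. A fall of at least 1 on the log2 scale was reached by Ereg, Areg, Errfi1 and Nrg1, against 3.76% of all tested genes called lower by that much. Across the 10180 genes the median log2 fold change was -0.01. In bulk RNA, fewer cells of a type and less RNA per cell cannot be told apart.

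**Figure D1:**
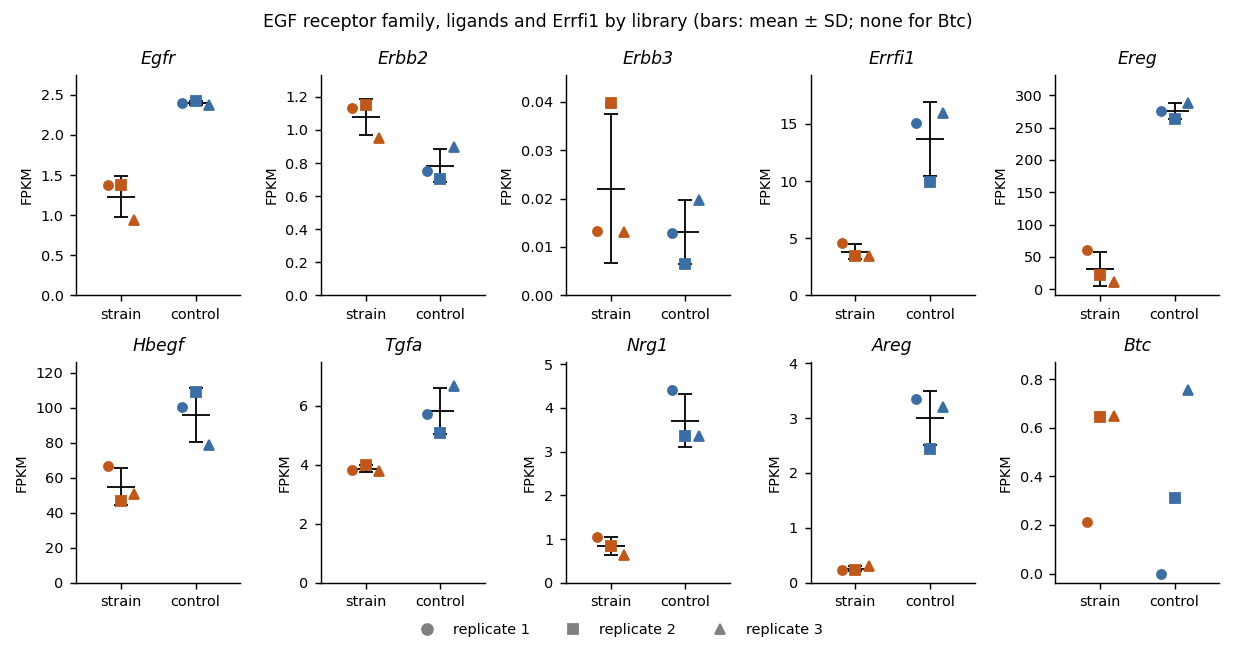
FPKM of the 10 genes in each library, strain to the left of control, with black bars at the mean ± SD of 3 libraries except for Btc, which is listed at 0 in 1 control library. The groups do not overlap for 8 genes: Erbb2 is higher under strain and the 7 tested genes are lower, and Erbb3 and Btc overlap. Among all tested genes the groups do not overlap in 51.9%, and in 28.0% with strain lower.

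Egfr, the receptor that binds most of these ligands, stood at 1.37, 1.38 and 0.937 FPKM in strain replicates 1 to 3, against 2.40, 2.43 and 2.37 FPKM in control replicates 1 to 3. Every strain library was below every control library, and the controls lay within a narrow band while strain replicate 3 was lower than the other two. Egfr fell 1.95-fold under strain, to 1.23 ± 0.25 FPKM against 2.40 ± 0.026 FPKM in controls (SD, n = 3 each; log2 fold change -0.62 ± 0.11 SE, limma adjusted p = 0.00334). Egfr was of low abundance in both groups, ranking 9582 to 10185 among all rows in strain libraries and 8462 to 8542 in control libraries. In strain libraries 10113 to 10142 rows reached 1 FPKM, so Egfr lay near the lower end of these, and under 1 FPKM in replicate 3.

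Erbb2, the co-receptor that binds no ligand of its own and pairs with the other receptors, was at 1.13, 1.15 and 0.953 FPKM under strain, against 0.755, 0.704 and 0.897 FPKM in controls. The groups did not overlap, with the strain libraries on the higher side, by a small margin between strain replicate 3 and control replicate 3. Among all tested genes 51.9% had groups that did not overlap. The means were 1.08 ± 0.11 FPKM under strain and 0.785 ± 0.10 FPKM in controls, 1.37-fold apart. The mean over all libraries, 0.932 FPKM, was just under the filter. An exact two-sided permutation test on log2(FPKM + 1) gave p = 0.1, the smallest that 3 against 3 allows. In limma without a filter, which called 23.3% of 16152 genes, the difference was 0.22 log2 units (95% interval 0.02 to 0.42) with an adjusted p = 0.107.

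The ratio of Erbb2 to Egfr, examined after the values were seen, was 0.824, 0.835 and 1.02 in strain libraries and 0.315, 0.290 and 0.378 in control libraries. The receptors were thus near equal in FPKM under strain, while Egfr was the more abundant in every control. On the log2 scale with the pseudocount the ratio differed by 0.83 between strain and control (exact two-sided permutation p = 0.1, the smallest possible). With a pseudocount of 0.1, less compressing at these levels, it differed by 1.34.

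Erbb3, a receptor with an impaired kinase that binds neuregulins, was close to the lower limit of the files. It stood at 0.0133, 0.0398 and 0.0131 FPKM under strain, against 0.0129, 0.00653 and 0.0198 FPKM in controls. The groups overlapped. Divided by the lowest value of the 6 libraries, that of control replicate 2, these values were 2.03, 6.09 and 2.01 under strain and 1.97, 1.0 and 3.03 in controls, close to whole multiples. Low values across genes gave no common step between libraries, and whether this step is the worth of 1 fragment was not settled. The 95% interval of the difference in limma without a filter was -0.03 to 0.06 log2 units (adjusted p = 0.68). Erbb4, the remaining receptor of the family, was at 0.408 to 0.463 FPKM under strain and 0.442 to 0.685 FPKM in controls and was under the filter too.

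Errfi1 was at 4.56, 3.44 and 3.47 FPKM under strain, against 15.1, 9.95 and 15.9 FPKM in controls. Control replicate 2 was the lowest of its group and well above the highest strain library, replicate 1. Errfi1 fell 3.57-fold, to 3.82 ± 0.63 FPKM under strain against 13.6 ± 3.23 FPKM in controls (SD, n = 3 each; log2 fold change -1.58 ± 0.17 SE, limma adjusted p = 0.000234). Of all tested genes, 1.59% had a lower log2 fold change.

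Set against the receptor it inhibits, Errfi1 had 3.32, 2.49 and 3.71 times the FPKM of Egfr in strain libraries, and 6.29, 4.10 and 6.71 times in control libraries. The inhibitor transcript exceeded the receptor transcript in all 6 libraries, and by less in each strain library than in any control. The log2 ratio, with the pseudocount, averaged 1.11 ± 0.18 under strain and 2.08 ± 0.35 in controls (SD, n = 3 each), a difference of -0.97 (exact two-sided permutation p = 0.1, the smallest possible).

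Ereg, which encodes epiregulin, a ligand of EGFR and ERBB4, had the largest fall of the 7 tested genes on the log2(FPKM + 1) scale. It stood at 61.2, 21.5 and 10.9 FPKM under strain, against 275, 263 and 288 FPKM in controls. The controls agreed closely, the strain libraries were spread over a wide range, and strain replicate 1 lay nearest to the controls without overlapping them. Ereg fell 8.83-fold, to 31.2 ± 26.5 FPKM under strain against 275 ± 12.1 FPKM in controls (SD, n = 3 each; log2 fold change -3.44 ± 0.62 SE, limma adjusted p = 0.0118). Without strain replicate 1 the strain mean was 16.2 FPKM and the fall 17.0-fold, and without strain replicate 2 the call was lost (limma adjusted p = 0.0553; 1.45e-05 to 0.0553 over 13 alternatives). Its rank by FPKM was 835 to 4114 of all rows in strain libraries and 171 to 186 in control libraries.

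Areg, which encodes amphiregulin, a low-affinity ligand of EGFR, was at 0.232, 0.224 and 0.311 FPKM under strain, against 3.35, 2.43 and 3.21 FPKM in controls. All strain libraries were low and alike, and all controls were well above them. Areg fell 11.7-fold as a ratio of means, to 0.256 ± 0.048 FPKM under strain against 2.998 ± 0.496 FPKM in controls (SD, n = 3 each; limma adjusted p = 4.34e-05). Its log2 fold change of -1.66 ± 0.12 SE understates this ratio because the pseudocount of 1 exceeds the strain level, and with a pseudocount of 0.1 it was -3.12.

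Hbegf encodes the heparin-binding EGF-like growth factor. It was at 66.9, 46.9 and 51.0 FPKM under strain, against 100.1, 109 and 78.9 FPKM in controls. Strain replicate 1 was the highest of its group and control replicate 3 the lowest of its own, and the groups did not overlap. Hbegf fell 1.75-fold, to 54.95 ± 10.6 FPKM under strain against 95.9 ± 15.4 FPKM in controls (SD, n = 3 each; log2 fold change -0.80 ± 0.16 SE, limma adjusted p = 0.00486).

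Tgfa, which encodes transforming growth factor alpha, another EGFR ligand, was at 3.84, 3.99 and 3.79 FPKM under strain, against 5.73, 5.09 and 6.67 FPKM in controls. The strain libraries were tight and all below the controls. Tgfa fell 1.504-fold, the smallest fall among the 7 tested genes (log2 fold change -0.48 ± 0.11 SE, limma adjusted p = 0.00928).

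Nrg1 encodes neuregulin 1, a ligand of ERBB3 and ERBB4 that does not bind EGFR. It was at 1.06, 0.833 and 0.642 FPKM under strain, against 4.403, 3.36 and 3.36 FPKM in controls. No strain library came near the control range. Nrg1 fell 4.39-fold, to 0.843 ± 0.207 FPKM under strain against 3.71 ± 0.60 FPKM in controls (SD, n = 3 each; log2 fold change -1.35 ± 0.13 SE, limma adjusted p = 0.00014). RefSeq lists 22 transcripts of this gene, and the files give 1 value for all of its forms, so isoforms were not analysed here.

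Btc, which encodes betacellulin, a ligand of EGFR and ERBB4, was at 0.211, 0.645 and 0.647 FPKM under strain. In controls it was listed at 0, 0.311 and 0.754 FPKM. The groups overlapped fully. Whether the listed 0 is a failed estimate was not tested. Rab5a, an endocytosis gene that cells in general use, was also listed at 0 in all 3 controls. The 95% interval of the Btc difference in limma without a filter was -0.35 to 0.69 log2 units (adjusted p = 0.624). The other ligands of the family were low in both groups: Egf at 0.0377 to 0.165 FPKM under strain and 0.0499 to 0.162 FPKM in controls, and Epgn at 0.141 to 0.201 FPKM under strain and 0.0873 to 0.199 FPKM in controls. Nrg3 and Nrg4 were listed at 0 in every library.

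**Figure D2:**
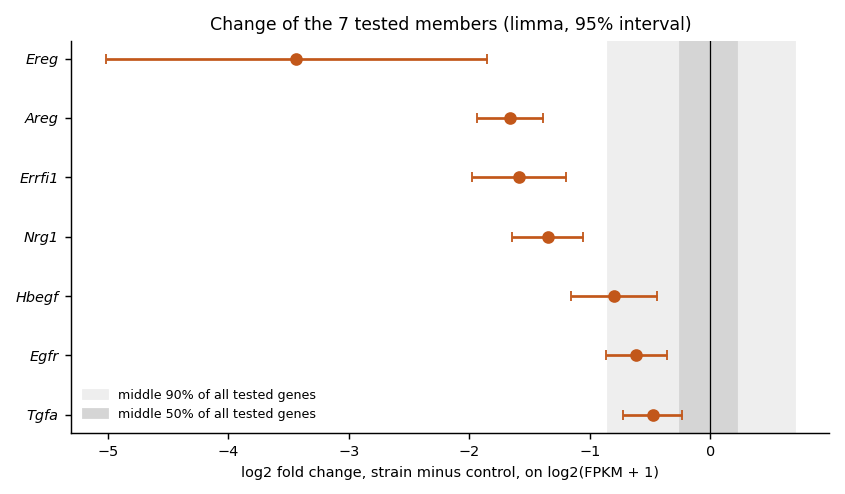
Log2 fold change, strain minus control, of the 7 tested genes (points) with 95% intervals from limma, over grey bands for the middle 90% (-0.85 to 0.70) and middle 50% (-0.26 to 0.22) of all 10180 tested genes. Ereg, Areg, Errfi1 and Nrg1 lie wholly outside the wider band, while Hbegf, Egfr and Tgfa lie inside it with intervals that do not reach 0.

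Summed over the 6 ligand genes, ligand transcripts came to 133, 74.1 and 67.3 FPKM in strain libraries, against 389, 383 and 380 FPKM in control libraries. The control sums were nearly the same, and each strain sum was well below them, 4.19-fold on average (91.6 ± 36.4 FPKM under strain and 384 ± 4.44 FPKM in controls, SD, n = 3 each). The make-up changed as well. Ereg made up 45.9%, 29.0% and 16.2% of the sum in strain libraries, and 70.8%, 68.7% and 75.6% in control libraries. Hbegf made up 50.2%, 63.3% and 75.8% in strain libraries, and 25.7%, 28.4% and 20.7% in control libraries. Hbegf was therefore the most abundant ligand transcript in all 3 strain libraries, and Ereg in all 3 controls. The ratio of Ereg to Hbegf, examined after the values were seen, was 0.914, 0.458 and 0.214 under strain and 2.75, 2.42 and 3.65 in controls (log2 difference with the pseudocount -2.64, exact two-sided permutation p = 0.1, the smallest possible). The remaining ligands together never made up as much as Ereg or Hbegf, with Tgfa at 2.88% to 5.64% of the sum in strain libraries and 1.33% to 1.75% in control libraries.

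**Figure D3:**
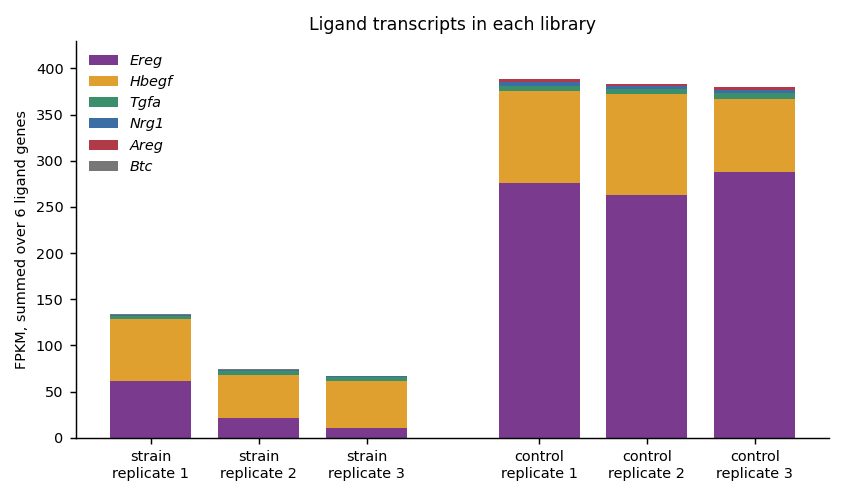
FPKM of 6 ligand genes stacked in each library, strain to the left of control. The strain bars reach 67.3 to 133 FPKM and are mostly Hbegf or almost evenly split with Ereg, and the control bars reach 380 to 389 FPKM and are mostly Ereg.

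Of the ligand genes, 4 sit side by side on rat chromosome 14 in the RefSeq order of build GRCr8: Btc, Areg, Ereg and Epgn. These neighbours differed in level and in change. Areg and Ereg fell, while Btc and Epgn, on either side of them, were under 1 FPKM in every library and were not tested. The wider neighbourhood was looked at after the values were seen. Of its 6 chemokine genes 4 were tested, and all 4 were called lower, as were 19.0% of all tested genes. Parm1, the nearest named coding gene before Btc, fell to 2.93 ± 0.54 FPKM under strain against 16.8 ± 2.32 FPKM in controls (limma adjusted p = 2.50e-05). On the other side Mthfd2l, a mitochondrial folate enzyme gene, fell to 0.587 ± 0.046 FPKM under strain against 1.45 ± 0.07 FPKM in controls (limma adjusted p = 0.00142). Mthfd2l passed the filter through its control values. The neutrophil chemokine genes Cxcl2, Cxcl1, Cxcl3 and Cxcl6 that follow were called lower by limma (log2 fold changes -4.96, -2.10, -2.91 and -0.94). The platelet chemokine genes Pf4 and Ppbp, between Cxcl3 and Cxcl6, were under 1 FPKM in every library and were not tested. Beyond Parm1, Rchy1 (10.3 ± 1.65 FPKM under strain and 10.7 ± 0.25 FPKM in controls) and Thap6 were not called. Strain replicate 1 was the highest strain library for Ereg, Cxcl2, Cxcl1 and Cxcl3, with Cxcl2 at 183, 51.6 and 44.7 FPKM in strain replicates 1 to 3. That library was also the highest for Cxcl6, Parm1, Mthfd2l, Epgn, Thap6 and Rassf6, the gene after Cxcl6, but not for Areg, Btc or Rchy1. Of the 7 tested genes among the 10 chosen, it was the highest for 4: Ereg, Hbegf, Nrg1 and Errfi1. How often that library was the highest strain library over all tested genes was not counted.

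**Figure D4:**
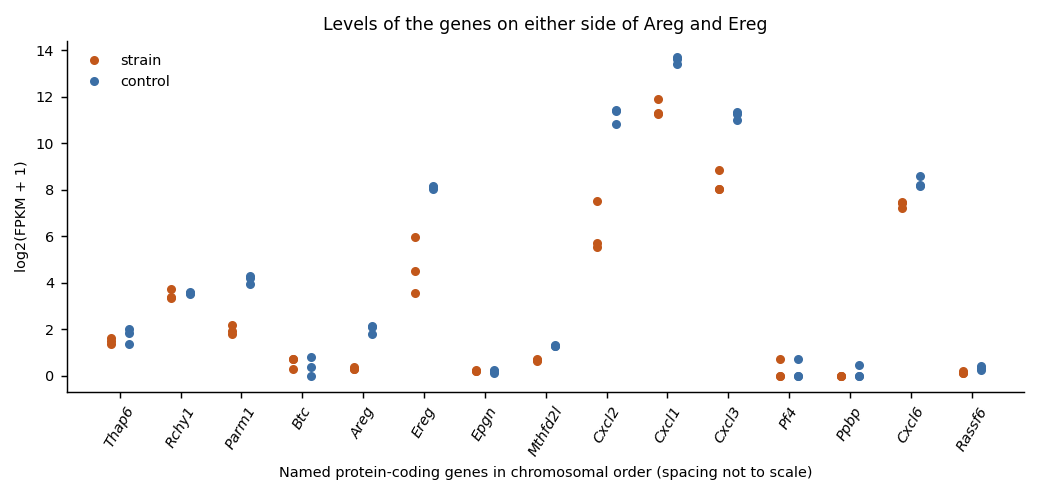
Levels as log2(FPKM + 1) of 15 named protein-coding genes around Areg and Ereg in chromosomal order, with each point 1 library, strain to the left of control at each gene. Parm1, Areg, Ereg, Mthfd2l, Cxcl2, Cxcl1, Cxcl3, Cxcl6 and Rassf6 are lower in all 3 strain libraries than in any control, as are 28.0% of all tested genes. Rassf6 is under 1 FPKM in every library and was not tested. Thap6, Rchy1, Btc, Epgn, Pf4 and Ppbp overlap.

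The genes that act before and after the receptor were read from 9 lists, of which 8 had tested genes. Together they held 122 tested genes, and 15 of these were called higher and 43 lower under strain, 47.5% in all, against 35.4% of all tested genes. Of all tested genes 16.4% were called higher and 19.0% lower, which is the background for the count of each list. The lists were counted and not tested as sets. They were chosen with earlier results of these data known, so these shares are no independent comparison.

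Proteases that free ligands from the membrane, and their regulators, had 3 rises and 4 falls among 12 tested (median log2 fold change -0.07). Furin, the convertase that activates these proteases, fell 2.36-fold to 36.6 ± 0.84 FPKM under strain against 86.4 ± 11.4 FPKM in controls (limma adjusted p = 0.000101). The related convertase Pcsk5 fell 2.29-fold and Pcsk6 rose 1.96-fold, and the sheddase-family gene Adam15 rose 1.38-fold. Adam17, in mouse cells the main sheddase of the Areg, Ereg, Hbegf and Tgfa precursors, was at 57.9 ± 6.43 FPKM under strain and 62.5 ± 1.39 FPKM in controls and was not called (limma adjusted p = 0.393). Adam10, which cuts the Btc precursor in mouse cells, fell to 15.6 ± 2.89 FPKM under strain against 21.4 ± 0.74 FPKM in controls (limma adjusted p = 0.0267).

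Genes that restrain the receptor had 9 falls and 0 rises among 14 tested, with a median log2 fold change of -0.46. The phosphatases Ptpn12 and Ptpn1 fell 1.84-fold and 1.63-fold, the RAS GTPase-activating gene Rasa1 fell 1.92-fold, and the ERK pathway inhibitor Spred2 fell 1.497-fold. The leucine-rich inhibitors Lrig1, Lrig2 and Lrig3, which bind the receptors at the surface, had log2 fold changes of -0.16, -0.12 and -0.07 and were not called. Genes of receptor endocytosis and degradation had 1 rise and 5 falls among 18 (median -0.18), a share of calls close to the 35.4% of all tested genes. The sorting genes Stam and Hgs fell 1.97-fold and 1.38-fold, and the ubiquitin ligases Cbl and Cblb, which tag the active receptor, fell 1.72-fold and 1.53-fold.

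Adaptors and kinases at the receptor had 3 rises and 6 falls among 18 (median -0.12). Grb10 rose 1.74-fold, the RAS exchange factor Sos2 fell 1.66-fold, and the adaptor gene Gab2 fell 1.59-fold. The RAS to ERK cascade had 1 rise and 0 falls among 15 (median -0.01). Its 1 rise was Mapk3, which encodes ERK1, at 64.9 ± 6.37 FPKM under strain against 48.3 ± 1.37 FPKM in controls (limma adjusted p = 0.00906). The PI3K to AKT arm had 1 rise and 3 falls among 14 (median -0.23), a share of calls under the 35.4% of all tested genes. Its catalytic subunit genes Pik3cb and Pik3ca fell 3.41-fold and 1.51-fold. Pik3cb averaged 0.83 FPKM under strain and passed the filter through its control values (2.83 FPKM on average). Surface partners of the receptor had 3 rises and 5 falls among 13 (median -0.10), with the hyaluronan receptor Cd44 falling 1.98-fold and the proteoglycan gene Cspg4 rising 3.37-fold.

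Genes known to respond to ERK had 3 rises and 11 falls among 18 tested, with a median log2 fold change of -1.30, and many of them answer to other pathways too. Dusp5, a phosphatase that inactivates ERK, fell 6.75-fold to 4.63 ± 1.17 FPKM under strain against 31.2 ± 6.94 FPKM in controls (limma adjusted p = 4.89e-05). Ier3, Plaur and Phlda1 fell 7.19-fold, 3.68-fold and 3.42-fold. The ERK phosphatase Dusp6 and the inhibitor Spry4 were lower too (log2 fold changes -1.64 and -1.62), as were Fosl1 (-1.58) and Ccnd1 (-1.01). Not every gene of the list moved that way. Emp1, Etv1 and Etv5 rose (log2 fold changes 0.75, 0.69 and 0.31), and Fos stood at 5.37 ± 0.70 FPKM under strain and 5.47 ± 2.33 FPKM in controls and was not called (limma adjusted p = 0.915).

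**Figure D5:**
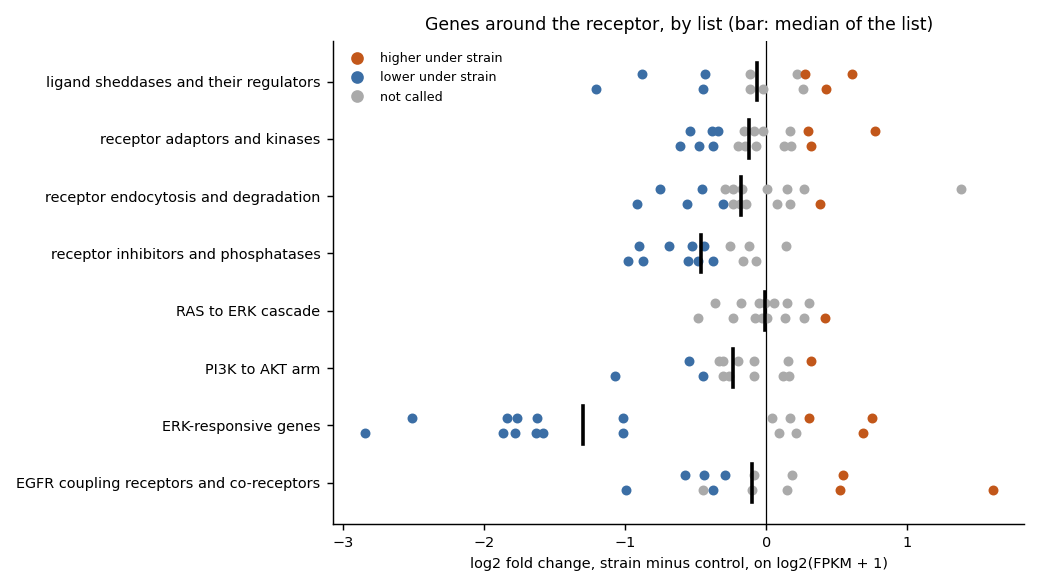
Log2 fold change, strain minus control, of each tested gene in 8 lists, with each point 1 gene coloured by its call and a black bar at the list's median. The ERK-responsive genes lie furthest to the left (median -1.30), the receptor inhibitors and phosphatases lie left of 0 (median -0.46), and the RAS to ERK cascade is centred on 0 (median -0.01) with 1 called gene.

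The profiles most like those of Egfr and Errfi1 were sought by Pearson correlation of log2(FPKM + 1) over the 6 libraries, among tested genes of at least median expression. For Egfr these were Zfp91, Arhgef5, Lrp12, Eif4g3 and Hnrnpa3, with r between 0.9975 and 0.9993. For Errfi1 they were Nf2, Hsp90b1, Slc39a6, Zfand2a and Cpt1a, with r between 0.9979 and 0.9995. With 2 groups that stand apart values of 0.95 or more are not rare: 432 of 4947 genes reached 0.95 with Egfr and 428 of 4946 with Errfi1. The named genes are the 5 highest for each.

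Markers of other cells that could supply these transcripts were mostly at or near 0. Of 11 epithelial markers in the files, Cdh1, Krt5, Krt14, Cldn7 and Grhl2 were listed at 0 in every library. As for Btc, whether such a 0 is a failed estimate was not tested. Only Krt7 reached the filter, and it fell to 11.7 ± 1.89 FPKM under strain against 58.5 ± 2.09 FPKM in controls (limma adjusted p = 1.63e-05), which set the summed level of the list at 10.5 to 14.2 FPKM under strain and 57.7 to 62.1 FPKM in controls. Elf3, another of them, averaged 0.271 FPKM under strain and 1.27 FPKM in controls. Of 12 Schwann and neural markers, 3 were tested and all 3 rose (Pmp22, S100b and Tubb3), while Sox10, which marks Schwann cells, averaged 0.0201 FPKM under strain and 0.0294 FPKM in controls. That list summed to 120 to 142 FPKM under strain and 62.5 to 75.1 FPKM in controls. Of 16 leukocyte markers, 4 were tested, with 1 rise (Lyz2), 2 falls (Cd68 and Adgre1) and Cd14 not called. Lyz2 averaged 3.30 FPKM under strain and 0.249 FPKM in controls, and passed the filter through its strain values. Cd68 averaged 0.633 FPKM under strain and 1.53 FPKM in controls, and passed it through its control values. The list summed to 21.3 to 24.5 FPKM under strain and 17.8 to 24.97 FPKM in controls, mostly from Cd14 (15.8 FPKM under strain and 14.5 FPKM in controls on average). Ptprc, carried by all leukocytes, averaged 0.0228 FPKM under strain and 0.00459 FPKM in controls. Of 12 endothelial markers 1 was tested, Eng, which rose, and Cdh5 was listed at 0 in every library, with the same limit. The list summed to 17.5 to 21.2 FPKM under strain and 13.6 to 14.6 FPKM in controls. The part of Krt7 and of the other markers that moved in the results above was not tested.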

How the data were processed

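Total RNA of nucleus pulposus cells was sequenced as Illumina libraries after TRIzol extraction, per the labels' protocols. The authors deposited 1 value per gene symbol for 22601 rows in each sample, taken here as FPKM because the values are not whole numbers and the submitters' processing notes name Cufflinks and Cuffdiff 2.2.1, besides HISAT2 2.0.4, cutadapt 1.9.3 and DESeq. Tool order, annotation and strand setting are not given in the sources used here. These notes name hg19 alone, a human build, so no coordinate from the files was used. Low values gave no common step between libraries (2.6% to 9.4% of low genes within 0.01 log2 units of the most frequent ratio), so whole reads were not recovered and depth is unknown. Left out were 27 rows whose symbol had become a date and 1 row with name and value run together.

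Values were fitted on log2(FPKM + 1), strain minus control, with limma 3.58.1 (R 4.3.3; trend and robust options on, two-sided), a procedure also tested on simulated data. Genes under the filter got an exact permutation test. The genes and lists were chosen with earlier results of these data known. Named genes are the 10 chosen genes, up to 4 called genes of smallest p per list, and the 5 closest profiles of Egfr and of Errfi1. Chosen after their values were seen were the neighbours of Areg and Ereg, Adam17, Adam10, the Lrig genes, Rab5a, Dusp6, Spry4, Fosl1, Ccnd1, Emp1, Etv1, Etv5 and Fos. Alternatives changed the pseudocount, filter, scaling, variance model and replicate block, or left out each library.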

Additional observations from a re-analysis of the deposited data

How the results depend on the processing

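The falls of Egfr, Areg, Hbegf, Tgfa, Nrg1 and Errfi1 kept their direction and their side of the threshold in every alternative that tested them, 12 or 13 each. Ereg lost its call without strain replicate 2 (log2 fold change -3.34, adjusted p = 0.0553 by limma) and ran from -4.08 to -2.89 with each library left out. With a filter at a mean of 5 FPKM only Ereg, Hbegf and Errfi1 could be tested. All 3 were called, as were 2488 of all 6572 genes tested at that setting. Between 6 and 7 of the 7 tested genes were called with each library left out, beside 2363 to 3572 of the 10168 to 10197 genes tested. The ratios of Errfi1 to Egfr, Ereg to Hbegf and Erbb2 to Egfr kept their direction in all 7 alternatives each, those of the last 2 being chosen after seeing the data. Apart from the pseudocount, these alternatives left out a library, which cannot reverse the direction where groups do not overlap. The same limit holds for the direction of the 7 genes called lower when a library is left out. Btc, not called, reversed to -0.029 without control replicate 1 (-0.029 to 0.38 with each library left out). Over all genes, 2363 were called without control replicate 1, against 3608 with all libraries (2363 to 3572 with each library left out), and quantile normalization called 3849, of which 2138 were higher.

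The replicate block called 3116 genes and changed no call among the 10 genes. Same-numbered samples correlated at 0.033, 0.108 and -0.116 in their deviations from the group means, and 1 of 3 strain samples correlated best with its own number, so the numbers were not taken as pairs. Quantile normalization, the 5 FPKM filter and the variance model were not run for Erbb2, Erbb3 and Btc, which lie under the filter. For these genes, near or under 1 FPKM, depth is unknown, and a permutation p cannot go below 0.1. With a pseudocount of 0.1, the log2 differences of Egfr, Erbb2 and Areg grew to -0.93, 0.41 and -3.12.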
